A study of Mus musculus with 9 samples.

Results

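The 10 genes described here belong to neutrophils and their granule-forming precursors, and were followed in whole-liver RNA of mice with thioacetamide injury. They are S100a8, S100a9, Prtn3, Elane, Mpo, Ngp, Camp, Ltf, Retnlg and Csf3r, and all 10 were found by gene symbol among the 24532 genes of the deposited table. These genes were chosen by their measured levels and changes in these same 9 libraries, so their values are given as a description and without p-values. All 10 passed the filter on low counts that left 14731 genes for testing.

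Livers came from wild-type C57BL/6 mice. Every mouse received escalating intraperitoneal thioacetamide (TAA), a hepatotoxin that produces fibrosis, 2 times a week over 10 weeks. The TAA group (replicates 12, 13 and 14) was injected with saline as its control treatment. Recombinant human cytoglobin (rhCYGB), a globin, was given to the other groups at 2 mg/kg into the tail vein, 2 times a week, in the last 2 weeks (replicates 17, 18 and 19) or the last 5 weeks (replicates 23, 27 and 28). Organs were taken 2 days after the final rhCYGB dose. Each group had 3 libraries, and all groups share the toxin, since no liver without TAA was among the samples. Age and sex are not given in the labels, and the labels do not tie each number to its own animal, so errors describe the spread between these libraries. The libraries held 55655727 to 87289945 estimated reads. The hepatocyte marker list, 10 of 10 genes tested, summed to 108737 to 162034 counts scaled to library size (CPM, by the TMM method throughout) over all libraries, and no gene of it was at 0.

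Neutrophils are made in bone marrow, and their granules are filled in a fixed order. Promyelocytes transcribe the azurophil granule genes Mpo, Elane and Prtn3. Myelocytes then transcribe the specific granule genes Ltf, Camp and Ngp. Mature cells carry the granule proteins but have shut down most of that transcription, while S100a8, S100a9, Retnlg and Csf3r stay active in them. In injured liver, neutrophils enter from blood, and monocytes also express S100a8, S100a9 and some Prtn3.

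Both members of a pair of neighbouring genes could be compared at 2 loci. In mm10 coordinates, S100a8 (gene ID 20201, chromosome 3, 90669071 to 90670034) lies 22596 bases from S100a9 (gene ID 20202, chromosome 3, 90692630 to 90695721). Prtn3 (gene ID 19152, chromosome 10, 79879667 to 79883172) lies 3140 bases from Elane (gene ID 50701, chromosome 10, 79886312 to 79888216). The promoters of these 4 genes are shown because the first pair moved together over the libraries and the second did not. Each is a RefSeq window of 300 bases on GRCm38.p6, with 250 bases before and 50 from the transcription start site on. Capitals mark matches, on either strand, to GAGGAA (a core of ETS sites such as those of PU.1), TTNNGNAA (C/EBP) or TGTGGT (RUNX), which are factors of myeloid cells, and none of the matches overlap in these 4 windows.
S100a8, chr3:90668821-90669120, plus strand: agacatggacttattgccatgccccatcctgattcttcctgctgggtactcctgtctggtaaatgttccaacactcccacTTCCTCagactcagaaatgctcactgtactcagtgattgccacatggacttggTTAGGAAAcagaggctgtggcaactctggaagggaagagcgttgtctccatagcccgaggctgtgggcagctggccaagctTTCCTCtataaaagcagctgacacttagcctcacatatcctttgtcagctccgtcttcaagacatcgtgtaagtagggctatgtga
S100a9, chr3:90695672-90695971, minus strand: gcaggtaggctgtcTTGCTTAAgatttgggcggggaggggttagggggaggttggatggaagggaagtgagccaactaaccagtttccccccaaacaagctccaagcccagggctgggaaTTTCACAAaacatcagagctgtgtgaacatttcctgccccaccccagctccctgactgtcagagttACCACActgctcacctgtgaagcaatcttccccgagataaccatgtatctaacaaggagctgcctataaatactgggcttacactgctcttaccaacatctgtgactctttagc
Prtn3, chr10:79879417-79879716, plus strand: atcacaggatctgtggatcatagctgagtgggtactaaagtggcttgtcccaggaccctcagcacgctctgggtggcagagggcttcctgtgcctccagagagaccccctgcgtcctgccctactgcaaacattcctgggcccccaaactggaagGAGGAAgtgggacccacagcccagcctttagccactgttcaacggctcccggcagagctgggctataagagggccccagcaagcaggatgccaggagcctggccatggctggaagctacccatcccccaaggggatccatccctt
Elane, chr10:79886062-79886361, plus strand: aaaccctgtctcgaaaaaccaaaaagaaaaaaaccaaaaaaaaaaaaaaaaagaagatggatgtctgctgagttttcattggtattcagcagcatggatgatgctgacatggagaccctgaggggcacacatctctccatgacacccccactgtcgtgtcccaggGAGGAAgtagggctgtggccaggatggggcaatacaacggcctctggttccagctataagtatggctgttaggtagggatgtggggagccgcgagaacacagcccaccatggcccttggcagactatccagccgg
The Prtn3 and Elane windows each hold 1 match, GAGGAA, starting 95 and 85 bases before the start site. The S100a8 window holds 2 ETS matches and 1 C/EBP match, and that of S100a9 2 C/EBP matches and 1 RUNX match. Over all 10 genes, 6 windows hold GAGGAA, against 28.3% of 32841 RefSeq mouse promoter windows of the same length. TTNNGNAA is in 5 of the 10 windows and in 40.7% of all, and TGTGGT in 2 of the 10 and in 16.8% of all. A match describes letters in the window and is not evidence of binding.

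Levels were low for most of the genes. Per transcript length, S100a9 and S100a8 stood highest, with means of 20.1 and 17.9 FPKM (the authors' fragment values, scaled to length and depth) over the 9 libraries. Prtn3, Retnlg and Csf3r followed at 2.75, 2.15 and 1.88 FPKM. The other 5 genes averaged less than 1 FPKM: Ngp 0.813, Camp 0.481, Ltf 0.223, Elane 0.208 and Mpo 0.0872. In TAA the FPKM order began S100a9, S100a8, Prtn3, Csf3r, Retnlg. In both rhCYGB groups Prtn3 had rank 5, after S100a9, S100a8, Retnlg and Csf3r. S100a9 and S100a8 differed by less than their spread (25.7 ± 21.7 and 24.3 ± 20.2 FPKM in TAA, SD, n = 3), and the 5 genes at the bottom of the order had SDs from 0.0377 to 1.84 FPKM that blur their order.

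**Figure D1:**
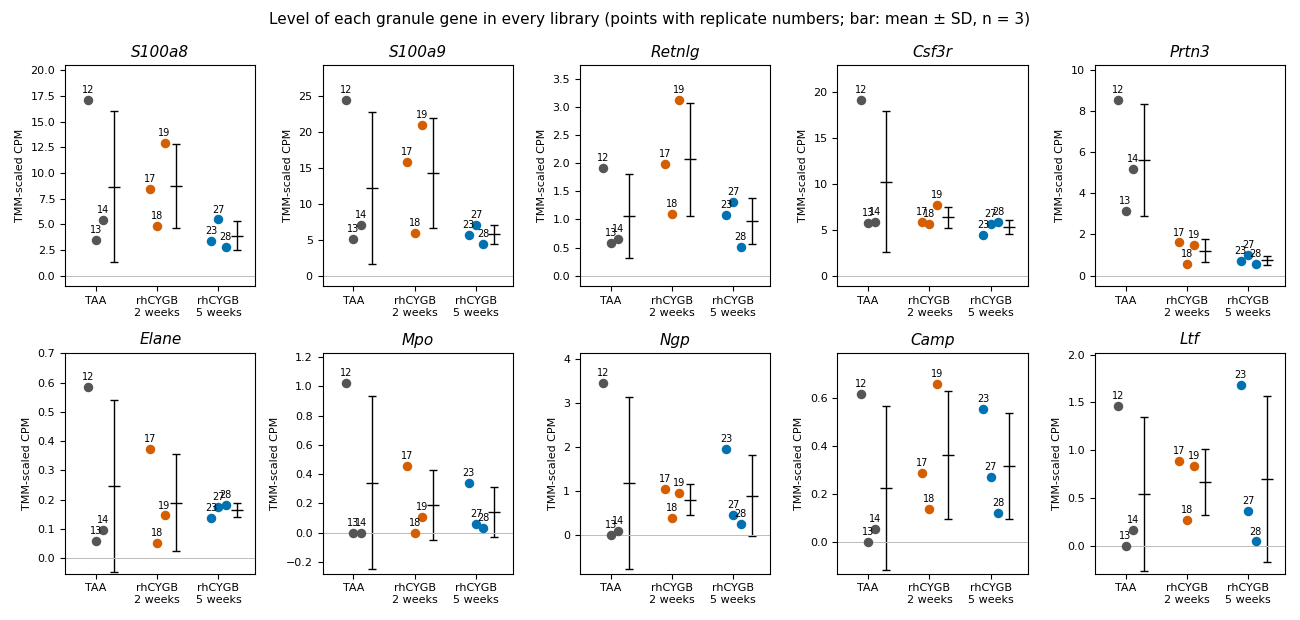
TMM-scaled CPM of the 10 genes (1 panel each, own vertical axis) in the TAA, 2-week and 5-week rhCYGB groups, with points as libraries labelled by replicate number and bars as mean ± SD of 3 libraries. Prtn3 is the panel in which the TAA libraries (3.16 to 8.52 CPM) lie above every rhCYGB library (0.563 to 1.61 CPM), and replicate 12 stands alone at the top of TAA in the other 9 panels.

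S100a8 and S100a9 encode calcium-binding proteins that pair as calprotectin, a major protein of the neutrophil cytosol. S100a8 had 17.1, 3.44 and 5.45 CPM in TAA replicates 12, 13 and 14 (1050, 234 and 397 estimated reads). It had 8.43, 4.80 and 12.9 CPM after 2 weeks of rhCYGB in replicates 17, 18 and 19 (408, 379 and 708 reads), and 3.39, 5.47 and 2.76 CPM after 5 weeks in replicates 23, 27 and 28 (220, 283 and 181 reads). The 3 groups overlapped, with 12 and 19 high and 28 lowest. The group means were 8.65 ± 7.35, 8.72 ± 4.07 and 3.87 ± 1.42 CPM (SD, n = 3).

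S100a9 followed the same libraries. It stood at 24.3, 5.16 and 7.07 CPM in TAA (1498, 351 and 515 reads), at 15.7, 5.94 and 21.0 CPM after 2 weeks (762, 469 and 1148 reads) and at 5.65, 7.09 and 4.46 CPM after 5 weeks (366, 367 and 293 reads). Again 12 and 19 were highest, and again the groups overlapped. The ratio of S100a9 to S100a8 reads lay between 1.24 and 1.87 in all 9 libraries while S100a8 itself varied from 2.76 to 17.1 CPM. Over the 9 libraries, Pearson's r of their log2 CPM was 0.98, and 0.97 without replicate 12, given as a description of libraries that also differ in depth. The log2 changes against TAA were 0.01 ± 0.56 for S100a8 and 0.22 ± 0.58 for S100a9 at 2 weeks (SE), and -1.16 ± 0.57 and -1.09 ± 0.59 at 5 weeks. Without replicate 12 they became 0.95 and 1.20 at 2 weeks and -0.21 and -0.10 at 5 weeks. Between the rhCYGB groups, 5 weeks against 2 weeks gave -1.17 ± 0.58 and -1.31 ± 0.59.

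Prtn3 encodes proteinase 3, a serine protease of azurophil granules, and was the gene of the 10 with separate groups. It had 8.52, 3.16 and 5.16 CPM in TAA (524, 215 and 376 reads). After 2 weeks of rhCYGB it had 1.61, 0.570 and 1.48 CPM (78, 45 and 81 reads), and after 5 weeks 0.710, 0.985 and 0.563 CPM (46, 51 and 37 reads). Every rhCYGB library lay below every TAA library, and the rhCYGB groups overlapped each other. The mean went from 5.61 ± 2.71 CPM in TAA to 1.22 ± 0.567 and 0.753 ± 0.214 CPM (SD, n = 3). The log2 change was -2.21 ± 0.46 at 2 weeks (4.64-fold lower) and -2.90 ± 0.47 at 5 weeks (7.47-fold lower), and -0.69 ± 0.47 between 5 and 2 weeks. Whether fewer cells carried this RNA or each cell carried less cannot be told apart in whole-liver RNA, here or for any gene below. Prtn3 stayed below TAA in 19 of 19 alternative analyses at each time, from -2.54 to -1.77 at 2 weeks and from -3.20 to -2.03 at 5 weeks. It was called in 11 of the 19 at 2 weeks and in 9 at 5 weeks. The alternatives reuse the same libraries by which the gene was chosen, so nothing is read from these counts. The call was lost at 2 weeks when any 1 library other than 23 or 27 was left out, and at 5 weeks when any 1 other than 27 was, where the log2 changes were -2.52 to -1.80 and -3.20 to -2.48.

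Elane, its neighbour, encodes neutrophil elastase, and did not separate the groups. It had 36, 4 and 7 reads in TAA (0.585, 0.0588 and 0.0962 CPM), 18, 4 and 8 reads after 2 weeks (0.372, 0.0507 and 0.146 CPM) and 9, 9 and 12 reads after 5 weeks (0.139, 0.174 and 0.183 CPM). Replicates 12 and 17 were high and the other 7 libraries were close to each other, at counts where counting error alone is large. The log2 changes were -0.41 ± 0.92 at 2 weeks and -0.56 ± 0.92 at 5 weeks, and 1.20 and 1.06 without replicate 12. In TAA, Prtn3 had 14.6, 53.8 and 53.7 reads for each Elane read in replicates 12, 13 and 14. After rhCYGB the ratio was 4.33, 11.3 and 10.1 at 2 weeks and 5.11, 5.67 and 3.08 at 5 weeks, so every rhCYGB library was below every TAA library. These ratios divide by only 4 to 36 Elane reads, and 53.8 in replicate 13 and 11.3 in replicate 18 each rest on 4, so they are imprecise. The 2 tested genes nearest to this pair were not called. Plppr3, 5033 bases from Prtn3, spanned 0.833 to 1.62 CPM (log2 change -0.35 ± 0.29, edgeR adjusted p = 0.481, at 2 weeks and -0.31 ± 0.29, adjusted p = 0.604, at 5 weeks). Med16, a Mediator subunit gene 6491 bases past Elane, spanned 18.5 to 22.0 CPM, with edgeR adjusted p = 0.675 and 0.980.

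**Figure D2:**
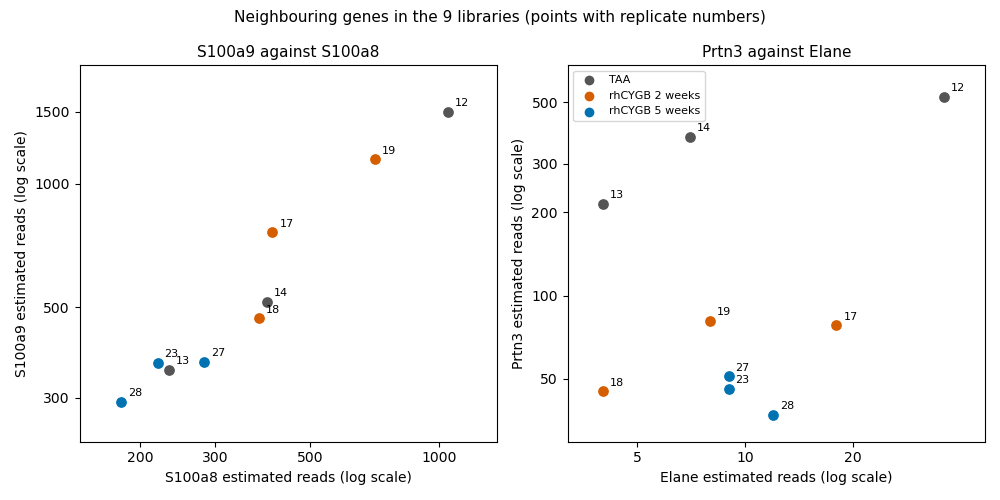
Estimated reads of S100a9 against S100a8 (left) and of Prtn3 against Elane (right) on log axes, with each point a library labelled by replicate number and coloured by group. S100a9 stays at 1.24 to 1.87 reads per S100a8 read, whereas the TAA libraries have 14.6 to 53.8 Prtn3 reads per Elane read and the rhCYGB libraries 3.08 to 11.3. The Elane counts are only 4 to 36 reads.

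Mpo (gene ID 17523, chromosome 11, 87793784 to 87804412) encodes myeloperoxidase, the enzyme that makes hypochlorous acid from azurophil granules. Its reads came from a few libraries: 63, 0 and 0 in TAA, 22, 0 and 6 after 2 weeks and 22, 3 and 2 after 5 weeks. Replicate 12 alone held 50.8% of the CPM summed over the 9 libraries. A count of 0 allows up to 3 reads, or 0.0441, 0.0412 and 0.0380 CPM in replicates 13, 14 and 18. In CPM the libraries with reads had 1.02 (12), 0.455 and 0.11 (17 and 19), and 0.339, 0.0580 and 0.0305 (23, 27 and 28). The log2 changes were -0.91 ± 1.71 and -1.21 ± 1.72, and 6.51 and 6.22 without replicate 12, where the remaining TAA libraries are at 0 and the fitted value depends on the prior count.

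The specific granule genes Ngp, Camp and Ltf lie within a short stretch of chromosome 9 in mm10. They are Camp (gene ID 12796, 109847377 to 109849456), Ngp (gene ID 18054, 110419808 to 110423012) and Ltf (gene ID 17002, 111019292 to 111042766). Ngp, a neutrophilic granule protein studied mainly in mouse, had 3.45, 0 and 0.0962 CPM in TAA (212, 0 and 7 reads), 1.05, 0.393 and 0.949 CPM after 2 weeks (51, 31 and 52 reads) and 1.94, 0.464 and 0.259 CPM after 5 weeks (126, 24 and 17 reads). Replicates 12 and 23 were high and TAA replicates 13 and 14 were below every rhCYGB library, while 12 was above all of them. Camp, the precursor of the antimicrobial peptide cathelicidin, had 38, 0 and 4 reads in TAA, 14, 11 and 36 after 2 weeks and 36, 14 and 8 after 5 weeks. Its levels were 0.618, 0 and 0.0549 CPM, then 0.289, 0.139 and 0.657 CPM, then 0.555, 0.271 and 0.122 CPM. As for Ngp, replicates 13 and 14 were lowest, but replicate 19 was highest.

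Ltf encodes lactoferrin, the iron-binding protein of specific granules. It had 1.46, 0 and 0.165 CPM in TAA (90, 0 and 12 reads), 0.889, 0.266 and 0.840 CPM after 2 weeks (43, 21 and 46 reads) and 1.68, 0.367 and 0.0457 CPM after 5 weeks (109, 19 and 3 reads). Its highest library was replicate 23 and the groups overlapped. The 3 genes went together over the 9 libraries, with Pearson's r of log2 CPM of 0.96 for Ngp and Camp, 0.94 for Ngp and Ltf and 0.92 for Camp and Ltf. The values were 0.97, 0.93 and 0.91 over the 8 libraries without replicate 12, again as a description. Against S100a8, r was 0.58 for Ngp and against Prtn3 it was -0.06.

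The changes of these 3 genes moved with single libraries. At 2 weeks the log2 changes were -0.57 ± 1.37 for Ngp, 0.70 ± 1.16 for Camp and 0.29 ± 1.34 for Ltf, and without replicate 12 they were 3.94, 3.56 and 2.92. At 5 weeks they were -0.39 ± 1.36, 0.52 ± 1.16 and 0.38 ± 1.33. These became 4.13, 3.40 and 3.03 without replicate 12, and -1.72, -0.20 and -1.44 without replicate 23. For Ngp the sign at 2 weeks thus rested on replicate 12. At 5 weeks, 2 of 18 alternative analyses gave Ngp a value above 0, that without replicate 12 among them.

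Retnlg (gene ID 245195, chromosome 16, 48872608 to 48874498) encodes resistin-like gamma, a small secreted protein of mouse marrow and blood neutrophils. It had 1.92, 0.588 and 0.659 CPM in TAA (118, 40 and 48 reads). After 2 weeks of rhCYGB it had 1.98, 1.10 and 3.12 CPM (96, 87 and 171 reads), and after 5 weeks 1.08, 1.31 and 0.518 CPM (70, 68 and 34 reads). Replicate 19 was highest, 12 was the highest of TAA, and the groups overlapped. The log2 changes were 0.97 ± 0.55 at 2 weeks and -0.12 ± 0.56 at 5 weeks, or 1.71 and 0.62 without replicate 12. Between 5 and 2 weeks the log2 change was -1.09 ± 0.56. Retnlg varied with S100a9 (Pearson's r of 0.87 over 9 libraries, and 0.90 without replicate 12).

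Csf3r (gene ID 12986, chromosome 4, 126024659 to 126044975) encodes the receptor for granulocyte colony-stimulating factor, the growth factor of the neutrophil lineage. It had 19.1, 5.76 and 5.85 CPM in TAA (1173, 392 and 426 reads), 5.83, 5.59 and 7.67 CPM after 2 weeks (282, 441 and 420 reads) and 4.46, 5.62 and 5.83 CPM after 5 weeks (289, 291 and 383 reads). Apart from replicate 12, all libraries lay between 4.46 and 7.67 CPM. The log2 changes of -0.68 ± 0.42 and -0.95 ± 0.42 became 0.12 and -0.14 without replicate 12. Csf3, which encodes the ligand, had 2 reads in replicate 17 and 0 in the other 8 libraries.

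The deposited transcript table divides Csf3r reads between annotated variants that differ little in length. Variant 3, which carries a RefSeq noncoding accession and is 3948 bases long, is 41 bases longer than the coding variant 1. In TAA it took 2.73%, 54.3% and 0% of the gene's reads in replicates 12, 13 and 14 (95% Wilson intervals 1.94 to 3.83%, 49.4 to 59.2% and 0 to 0.894%). After 2 weeks of rhCYGB it took 98.9%, 95.2% and 100% in replicates 17, 18 and 19 (96.9 to 99.6%, 92.8 to 96.9% and 99.1 to 100%), so these 3 libraries lay above the other 6. After 5 weeks it took 0%, 24.1% and 14.4% (0 to 1.31%, 19.5 to 29.3% and 11.2 to 18.2%). Variant 1 took the rest and variant 2 had 0 reads. These intervals cover counting error only, and the split depends on how StringTie shares reads between near-identical transcripts, which was not tested. By contrast, S100a9 variant 1, which differs by 3 bases in length from variant 2, took 79.3% to 89.6% of that gene's reads in every library.

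**Figure D3:**
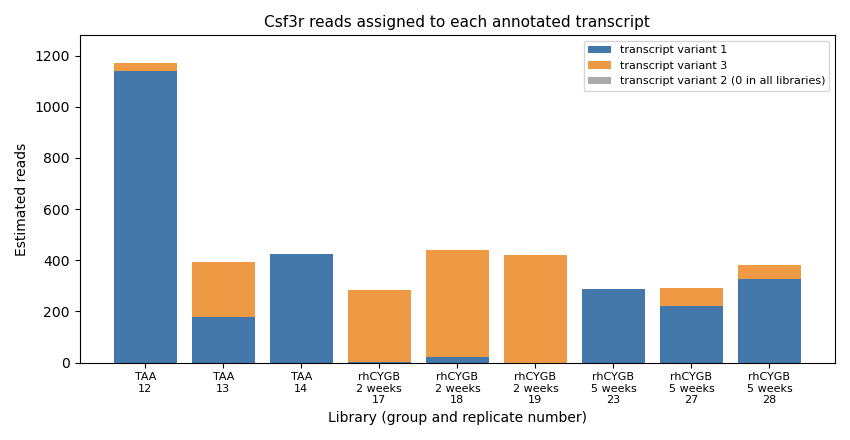
Estimated reads of Csf3r in each library, stacked by the annotated transcript they were assigned to, with libraries labelled by group and replicate number. Variant 3 takes at least 95.2% of the reads in each library of the 2-week group and at most 54.3% in any other library, while the total stands between 282 and 441 reads in every library but replicate 12.

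Replicate 12 was the library with the most of this RNA. The 10 genes summed to 78.0, 18.2 and 24.6 CPM in TAA, to 36.7, 18.9 and 48.8 CPM after 2 weeks and to 19.9, 21.8 and 14.8 CPM after 5 weeks. Replicate 12 had the highest level of the 9 libraries for 7 of the 10 genes, whereas Retnlg and Camp were highest in 19 and Ltf in 23. Among all 14731 tested genes, 9.52% were highest in replicate 12. In 9 of the 10 genes (not Prtn3) it had more than 2 times the level of each of the other TAA libraries, which held for 1.16% of tested genes. Among 72 tested further genes of neutrophils and of their recruitment (lists below), 10 had this pattern: Cst7, Mmp9, Cd177, Chil1, Cxcr2, Mrgpra2b, Slfn4, Asprv1, Alox5 and Cxcl3. The 10 genes were chosen by their levels in these libraries and the lists with earlier results known, so nothing is read from these counts. Elane and Mpo, highest in replicate 12, had under 10 reads in 6 of the 9 libraries. Cxcr2, the chemokine receptor of mature neutrophils, had 3.22 CPM in replicate 12 against 0.499 and 0.659 CPM in replicates 13 and 14. The monocyte genes also summed highest of the 9 libraries in replicate 12, at 178 CPM against 145 and 144 CPM in replicates 13 and 14. Within TAA, replicate 12 was also highest for B and plasma cell genes (17.5, 12.1 and 13.1 CPM). The same held for T and NK cell genes (5.72, 3.70 and 3.37 CPM). Dendritic cell (61.3, 45.7 and 52.3 CPM) and eosinophil genes (2.24, 2.16 and 1.69 CPM) did likewise. Hepatocyte genes (124217, 108737 and 119878 CPM) and acute phase genes (27104, 22060 and 26043 CPM) were also highest in replicate 12 within TAA. Kupffer cell genes were lowest in it (589, 731 and 681 CPM). In the eosinophil sum of replicate 12, 6 of 10 genes were at 0. Erythroid, platelet, progenitor, and basophil and mast cell genes did not stand highest in replicate 12. Erythroid genes, 13 of 14 in the table and 4 or 5 of them at 0 in each TAA library, summed to 246, 257 and 376 CPM in replicates 12, 13 and 14. Platelet and megakaryocyte genes, 9 of 9 in the table, summed to 19.4, 18.2 and 19.5 CPM.

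The 10 genes were not spread over libraries alike. From the highest level down, replicate 23 had rank 1 of the 9 libraries for Ltf, rank 2 for Ngp and rank 3 for Camp and Mpo. The same library had rank 8 for S100a8, rank 7 for S100a9 and rank 9 for Csf3r. The reads of Ngp, Camp, Ltf, Mpo and Elane together came to 439, 4 and 30 in TAA, 148, 67 and 148 after 2 weeks and 302, 69 and 42 after 5 weeks. Within groups, the SD of log2 CPM ran from 0.60 (Csf3r) to 2.28 (Mpo), against a median of 0.27 over all tested genes. The largest were those of Mpo, Ngp, Ltf and Camp (2.28, 2.24, 2.16 and 1.55), which had libraries at 0 reads. Low counts widen such an SD, and the median was not taken over genes of like level.

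**Figure D4:**
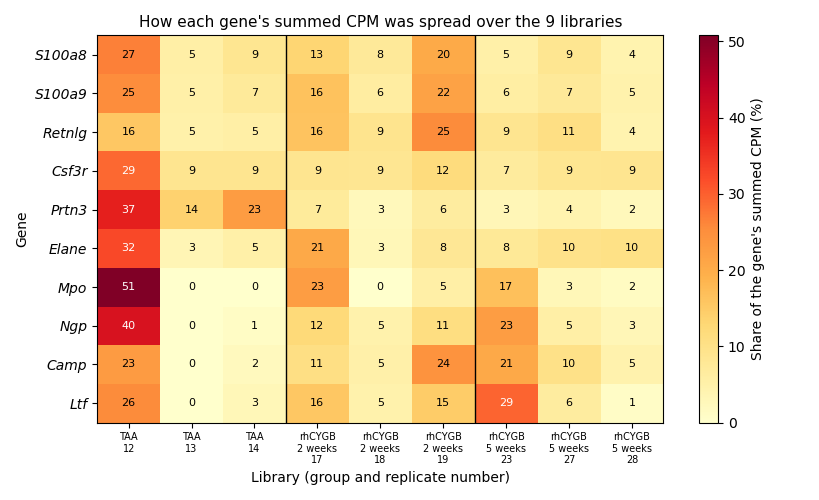
Share of each gene's CPM, summed over the 9 libraries, that came from each library (rows add to 100%, darker for more), with black lines between the TAA, 2-week and 5-week groups. Replicate 12 holds the largest share for 7 genes, up to 50.8% for Mpo, Prtn3 alone is concentrated in all 3 TAA libraries, and Ltf peaks in replicate 23.

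At 2 weeks against TAA, edgeR called Prtn3 lower and none of the other 9 genes (1 of 10, against 3.31% of the 14731 tested genes called in either direction and 1.34% called lower). Of all genes called, 59.6% were higher under TMM scaling and 6.39% with library totals alone, while Prtn3 was lower under both. Prtn3 was also the gene whose 2-week libraries all lay below TAA (1 of 10, against 16.3% of tested genes). The median log2 change of the 10 genes was -0.20, against -0.03 over all tested genes, and became 1.45 without replicate 12 and 0.19 without replicate 18. Because these contrasts were used to choose the genes, nothing is read from the counts. At 5 weeks, Prtn3 was again the gene called (1 of 10, against 1.29% in either direction and 0.604% lower) and the gene with separate groups (1 of 10, against 13.4% of tested genes lower). The median was -0.75, against 0.01 over all tested genes, and 0.84 without replicate 12. Both comparisons share the TAA libraries. At 5 against 2 weeks, edgeR called 0 of the 10 genes, against 0.0204% of tested genes, and DESeq2 called 0 of the 6 to which it gave an adjusted p, against 5.73% of its genes. An unadjusted p under 0.05 was reached by 0 of the 10 genes there (23.2% of tested genes), by 1 at 2 weeks (23.4%) and by 2 at 5 weeks (19.2%), and nothing is read from these counts either. All 10 overlapped between the rhCYGB groups, whereas 21.1% of tested genes did not. Their median log2 change between them was -0.28, against -0.01 over all tested genes.

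**Figure D5:**
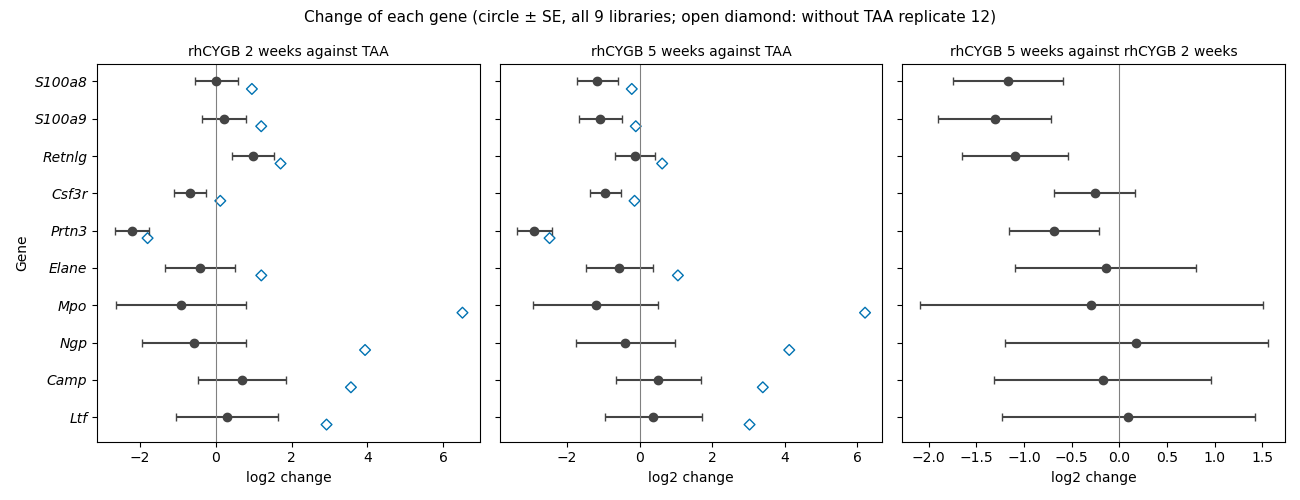
Log2 change of each gene with its SE (circles and bars, all 9 libraries in the fit) in the 3 comparisons, with open diamonds for the value against TAA without replicate 12. Prtn3 stays below 0 against TAA with and without that library, while Ngp, Mpo and Elane move from below 0 to above it in both comparisons.

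Further genes of neutrophils and their precursors were taken from 4 lists, with 96 of 97 symbols in the table, 72 tested and 6 at 0 in all 9 libraries. Azurophil granule and promyelocyte genes had 4 of 10 tested and 0 called in any comparison. Their median log2 changes were 0.53 at 2 weeks and 0.16 at 5 weeks against TAA. Ctsg, the cathepsin G gene of azurophil granules, had 6 reads in replicate 12 and 0 elsewhere. Ms4a3 and Bpi, also genes of the promyelocyte stage, were at 0 in all 9 libraries. The lowest p at 2 weeks was that of Serpinb1a, an inhibitor of neutrophil serine proteases (7.99 ± 1.98 against 3.58 ± 1.01 CPM, log2 change 1.15 ± 0.28, edgeR adjusted p = 0.0529). At 5 weeks it was that of the histidine decarboxylase gene Hdc (2.11 ± 0.238 against 3.84 ± 0.480 CPM, log2 change -0.86 ± 0.20, edgeR adjusted p = 0.0622).

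Specific and gelatinase granule genes had 13 of 17 tested, 1 higher at 2 weeks and 1 lower at 5 weeks, with medians of -0.29 and -0.89. Cebpe, the transcription factor of specific granule formation, rose at 2 weeks by 1.06 ± 0.16 on the log2 scale (edgeR adjusted p = 0.0240). It had 9.96, 8.08 and 9.46 CPM in TAA, 20.3, 19.3 and 17.6 CPM after 2 weeks and 11.9, 17.3 and 16.1 CPM after 5 weeks, so both rhCYGB groups lay above TAA. In the same libraries Fcnb, the ficolin gene of immature neutrophils, had 4 reads in replicate 12 and 0 elsewhere. TAA replicates 13 and 14 had 550 and 689 reads of Cebpe but 0 and 7 of Ngp. Which cells carried the Cebpe RNA was not tested. Chil3, a chitinase-like protein of neutrophils and macrophages, fell at 5 weeks by 2.08 ± 0.38 (edgeR adjusted p = 0.0449). Its TAA libraries had 5.80, 3.41 and 3.16 CPM, the 2-week libraries 1.10, 2.12 and 2.32 CPM and the 5-week libraries 1.13, 1.18 and 0.624 CPM. Lcn2 (lipocalin 2), which hepatocytes also make, spanned 50.9 to 425 CPM with overlapping groups.

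Surface and cytosolic genes of mature neutrophils had 38 of 48 tested, 1 higher at 2 weeks and 1 lower at 5 weeks, with medians of -0.14 and -0.58. Siglece, an inhibitory lectin of myeloid cells, rose at 2 weeks by 1.01 ± 0.22 (edgeR adjusted p = 0.0441), from 3.34 ± 0.584 to 6.70 ± 1.46 CPM (SD, n = 3). Ly6g, the defining surface marker of mouse neutrophils, had 9 reads in replicate 12, 3 in replicate 28 and 0 in the other 7 libraries. Growth factors and chemoattractants of neutrophils had 17 of 22 tested and 0 called, with medians of -0.36 and -0.65. Cxcl3, a ligand of Cxcr2, had 189, 82 and 66 reads in TAA, 2, 8 and 19 after 2 weeks and 12, 8 and 0 after 5 weeks (edgeR adjusted p = 0.0719 and 0.0741). For Csf1 the 5-week value was -0.80 ± 0.19 (edgeR adjusted p = 0.0669). None of the 72 genes was called at 5 against 2 weeks by edgeR, while 24 of them had an unadjusted p under 0.05, against 23.2% of tested genes. DESeq2 called 7 of the 56 to which it gave an adjusted p, against 5.73% of all such genes.

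Monocyte markers moved in the same direction as Prtn3, while the sums of some neutrophil lists did not. The 11 monocyte genes summed to 178, 145 and 144 CPM in TAA, 110, 142 and 140 CPM after 2 weeks and 88.7, 119 and 101 CPM after 5 weeks. Every rhCYGB library was thus below every TAA library, but at 2 weeks only narrowly (142 against 144 CPM). Csf1r, the largest part of the sum, had 65.1 to 79.3 CPM in TAA and overlapped at 2 weeks (62.4 to 75.6 CPM). At 5 weeks it had 52.4 to 61.7 CPM. Among all tested genes, 16.3% at 2 weeks and 13.4% at 5 weeks had every library below TAA. Of the 11 monocyte genes, 10 had log2 changes below 0 at each time, with medians of -0.69 and -0.92, and none was at 0 in any library. The fractalkine receptor gene Cx3cr1 fell at both times, by 0.97 ± 0.22 and 1.15 ± 0.22 (edgeR adjusted p = 0.0450 and 0.0467), and the proteoglycan gene Vcan fell at 5 weeks by 1.56 ± 0.31 (edgeR adjusted p = 0.0488). The part of monocytes in the Prtn3 values was not tested. Haematopoietic progenitor genes, 7 of 12 tested, summed to 54.3 to 61.2 CPM in TAA, 45.2 to 48.4 CPM after 2 weeks and 51.3 to 65.7 CPM after 5 weeks, and eosinophil genes, 2 of 10 tested, to 1.59 to 2.46 CPM over all libraries. Basophil and mast cell genes, 1 of 10 tested, stayed between 0.444 and 1.11 CPM. Neither of the last 2 lists separated the groups, and most of their genes were below the filter. The 5-week calls of Chil3, Cx3cr1 and Vcan, like that of Prtn3, were each lost when any 1 library other than 27 was left out. The 2-week calls of Siglece and Cx3cr1 were lost without any 1 library other than 23 or 27, and that of Cebpe without 12, 13, 14, 17 or 18, each with its direction kept (0.95 to 1.11 for Cebpe).

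Likeness to other genes was measured as Pearson's r of log2 CPM over the 9 libraries, among 12409 tested genes outside the 10 that averaged 1 CPM or more, and is a description without a test. Closest to S100a9 were Il1b, the interleukin 1 beta gene (r = 0.92, and 0.91 without replicate 12), Ift74 (0.89), Cyp1b1 (0.89), Ccdc166 (0.89) and Ifitm6 (0.84). Il1b had 4.49, 1.76 and 2.91 CPM in TAA, 3.08, 2.51 and 5.49 CPM after 2 weeks and 1.85, 2.67 and 1.52 CPM after 5 weeks, highest in replicates 19 and 12 like S100a9. Closest to Ngp were Gigyf1 (0.92), Ext1 (0.90), Clk2 (0.87), Ezh1 (0.85) and Zfand4 (0.85), and to Mpo Slc22a7 (0.87), Bbs9 (0.85), Chd1l (0.84), Jchain (0.84) and Asns (0.83). For Prtn3, added after its values were seen, they were Fgl1 (0.96), Alox12 (0.96), Gsg2 (0.95), Klf6 (0.94) and Nap1l1 (0.93). Prtn3 itself had r = 0.35 with Elane, 0.23 with Mpo and 0.51 with S100a9, and -0.13, -0.26 and 0.22 over the 8 libraries without replicate 12.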

How the data were processed

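Poly(A)-selected, strand-marked libraries (9, from liver) were sequenced from both ends, per the labels' protocols. HISAT2 2.1.0, StringTie 1.3.4d, FastQC 0.11.7 and the mm10 build are listed in the submitters' processing notes. The authors deposited estimated counts of reads (whole numbers) and FPKM for 24532 genes and 36780 transcripts, per the file headers. How counts were made from StringTie output, and with which strand setting, is not given in the sources used here, so antisense partners cannot be told apart.

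Estimated counts were filtered with filterByExpr (minimum count 10, total 15), TMM-scaled and compared by the quasi-likelihood F test of edgeR 4.0.16 (R 4.3.3), all 9 libraries in 1 fit with 3 groups. P-values were adjusted by Benjamini-Hochberg over 14731 genes, with calls under 0.05. The SE is the log2 change divided by the square root of F. Alternatives used DESeq2 1.42.0 and limma 3.58.1 on log2(FPKM + 1). The scripts were tested on simulated counts. No 2 libraries of a group agreed within sampling noise (lowest chi-square per degree of freedom 66.4), and the labels give no batch.

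The genes and lists were chosen with earlier results of these data known. Named from the further lists were called genes, otherwise the lowest p, and for S100a9, Mpo and Ngp the 5 most similar genes. Promoters are from RefSeq (GRCm38.p6), with all 10 matched by symbol. Protein sequences were not used here, and 1 called gene of the further lists is not reported here. Directions are relative to TMM scaling: scaling to library totals shifted the all-gene median by -0.33, -0.22 and 0.11 (log2; 2 weeks, 5 weeks, and 5 against 2 weeks), and log2(FPKM + 1) by -0.17, -0.14 and 0.06.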

Additional observations from a re-analysis of the deposited data

Results flagged for a closer look

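The share of Csf3r reads assigned to transcript variant 3 came from the transcript table, which the gene comparisons do not use. It was 95.2% at the lowest in the 2-week rhCYGB group, above the 54.3% at the highest in TAA. The difference was not tested, and the share reached 24.1% at most after 5 weeks.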

How the results depend on the processing

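No paired analysis was possible because the groups share no replicate number. Of 19 alternatives, 17 were planned, and 2 were added after seeing the data, namely removal of the trend over transcript length and leaving out libraries 17, 18 and 23 together. Genes called at 2 weeks numbered 488, but 1722 with library totals, 1662 with DESeq2, 1983 with limma on log2(FPKM + 1), 1023 with only the 2 groups compared and 12 without the 3 libraries. At 5 weeks they numbered 190, but 504, 1127, 1001, 1 and 7 in that order, 77 with upper quartile scaling, 105 with no filter on low counts and 523 with the length trend removed. At 5 against 2 weeks they numbered 3, but 756 with DESeq2, 5 with limma, 0 with only the 2 groups, 7 with the length trend removed and 5 without the 3 libraries. Library totals changed the split of called genes from 59.6% to 6.39% higher at 2 weeks and from 53.2% to 7.54% at 5 weeks, limma on FPKM to 7.31% and 6.89%, and upper quartile scaling to 45.1% and 41.6%.

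The call of Prtn3 (1 of the 10 genes) became 0 without the 3 libraries at both times, and at 5 weeks also with only the 2 groups compared. The further lists held 2 calls at 2 weeks, but 8 with library totals, 13 with DESeq2, 9 with limma, 5 with only the 2 groups, 1 with upper quartile scaling, with no filter or with the length trend removed, and 0 without the 3 libraries. Their 2 calls at 5 weeks became 8, 16, 13, 0, 1, 1, 6 and 0 in that order, and the 0 at 5 against 2 weeks became 7 with DESeq2. The causes were not tested.

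Leaving out each library in turn gave 1 to 1095, 0 to 240 and 1 to 1889 genes called in the 3 comparisons. At 2 weeks the count was 31, 1 and 2 without replicates 12, 13 and 14, 5 and 3 without 17 and 18, 1095 and 888 without 23 and 27, and 169 without 28. At 5 weeks it was 240 without 27 and at most 5 without any other, and at 5 against 2 weeks 1889 without 27, 11 without 19 and at most 4 without any other. Leaving out each library gave 0 to 1, 0 to 1 and 0 calls among the 10 genes, and 0 to 5, 0 to 3 and 0 to 12 in the further lists. The median log2 change of the 10 genes was then -0.64 to 1.45, -1.14 to 0.84 and -1.12 to -0.24. Other alternatives moved that median by less than the spread between replicates (1.27), although at 2 weeks it was 0.10 with only the 2 groups compared and 0.14 without the 3 libraries. Low counts limit Elane, Mpo and Camp, each with 107 to 161 reads over all 9 libraries.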

Other observations

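Markers of other cells were summed in the same libraries. The T and NK cell genes, 11 of 12 in the table, summed to 3.37 to 5.72 CPM in TAA, 10.2 to 16.1 CPM after 2 weeks of rhCYGB and 3.92 to 13.5 CPM after 5 weeks, so the 2-week libraries lay above every TAA library. The list of 18 acute phase genes of hepatocytes, most of them for secreted plasma proteins, shares Lcn2 and Il1rn with the neutrophil lists. Its sums were 22060 to 27104 CPM in TAA, 28764 to 38111 CPM after 2 weeks and 21276 to 26536 CPM after 5 weeks. The 2-week libraries thus lay above all others. The 11 Kupffer cell genes of resident liver macrophages summed to 589 to 731, 708 to 945 and 624 to 704 CPM in the same order, and TAA overlapped both rhCYGB groups, while the 5-week libraries lay below the 2-week ones. The part of these cells in the values of the 10 genes was not tested.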
